A study of Mus musculus with 5 samples.

Results

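The platelet-derived growth factor (PDGF) and fibroblast growth factor (FGF) receptors and ligands described here are 10 genes of the 28001 features counted. They are the PDGF receptors Pdgfra and Pdgfrb with the ligands Pdgfa, Pdgfb and Pdgfc, and the FGF receptors Fgfr1 and Fgfr2 with the ligands Fgf2, Fgf7 and Fgf10, taken by gene symbol and not by any measured value. Single-cell RNA was counted in 5 mouse libraries of the C57BL/6J strain, prepared from sorted cells that carry the red reporter tdTomato after recombination in the lineage of the transcription factor gene Hic1. Muscle (1 library) holds resting mesenchymal progenitors of the hindlimb, with the genotype Hic1CreERT2/CreERT2;Rosa26LSLtdTomato/+. Sarcomas 1 to 4 (1 library each, from the shoulder, the head, the head and ear, and the hip) hold cells of epithelioid sarcomas at endpoint, with the genotype Hic1CreERT2/CreERT2;Rosa26LSLtdTomato/LSLtdTomato;Smarcb1FL/FL. Mice of both groups received 2.5 mg tamoxifen in 100 µL sunflower oil daily for 5 days from an age of 8 weeks, and then had 10 days of washout. Cre sits in the Hic1 gene on both copies in both groups, so deletion of Smarcb1, which encodes a subunit of SWI/SNF remodellers of chromatin, is driven in cells that use the Hic1 promoter. The groups also differ in reporter copies, body site, tumour state and time, which cannot be told apart, and muscle is 1 library.

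PDGF ligands are secreted dimers that bind the receptor tyrosine kinases PDGFRα and PDGFRβ at the cell surface. PDGF-A and PDGF-C chains act mainly through PDGFRα, while PDGF-B also binds PDGFRβ and, released by endothelial cells, recruits the mural cells (pericytes and vascular smooth muscle cells) that wrap vessels. Pdgfra is a standard marker of the fibro-adipogenic progenitors of muscle, and Pdgfrb of mural cells. FGF2 signals through FGFR1 with heparan sulphate as cofactor, and FGF7 and FGF10 are made by mesenchyme and act mainly on the epithelial splice form of FGFR2.

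Of 39930 barcodes, 37519 were kept, those with 500 genes or more and with mitochondrial transcripts making up 10% or less of their UMIs (unique molecular identifiers, each standing for a captured transcript). The median was 7566 UMIs per kept cell in muscle and 20005 to 28658 in the sarcomas, and no pair of libraries shared more than 22 barcodes. Sarcoma cells were cells of the sarcoma libraries with at least 2 UMIs of Gchfr and none of Smarcb1, and numbered 5122, 7382, 2834 and 3264 in sarcomas 1 to 4. Tumour stroma was cells with at least 4 UMIs of Ddah1, Wisp1, C1qtnf7 and Fbn2 together, 175, 153, 1714 and 79 cells. Mural cells had at least 5 UMIs of Rgs5 per 10000, 182, 130, 231 and 25 cells, and 753 cells in muscle. The other 7354 muscle cells are called muscle progenitors, and 1885, 473, 2072 and 3364 sarcoma-library cells met no rule. Levels are UMIs of a gene per 1000000 UMIs of the class (CPM). The libraries capture the 3′ ends of transcripts, so levels are compared between cells and not between genes.

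The 10 mural markers, which include the Rgs5 of the class rule, summed to 10744 to 15451 CPM in tumour mural cells and 15830 CPM in muscle mural cells. They summed to 13.8 to 575 CPM in sarcoma cells and 156 CPM in muscle progenitors. All 10 were counted in those classes too, so only the level sets mural cells apart. Progenitor and fibroblast markers summed to 2922 to 7731 CPM in tumour mural cells. In muscle mural cells they summed to 16093 CPM, against 72482 CPM in muscle progenitors. Endothelial markers summed to 60.9 to 129 CPM in tumour mural cells and 20.3 CPM in muscle mural cells, and Ptprc, the pan-leukocyte marker, was at 0 UMIs in all 5. Of the other haematopoietic markers some were counted, 4, 3, 3 and 3 of 6 in the mural cells of sarcomas 1 to 4, with sums of 37.1, 18.4, 7.09 and 20.8 CPM against 0.625 CPM in muscle mural cells. Their part in the mural results was not tested. The stroma of sarcoma 4 stood apart from its label. Its progenitor and fibroblast markers summed to 2679 CPM against 23785 to 36943 CPM in the other stroma, and Smarcb1 was at 9.75 CPM against 43.5 in sarcoma 1, 65.6 in sarcoma 2 and 59.7 in sarcoma 3. The 6 sarcoma markers summed to 2290, 13705, 946 and 3138 CPM in the stroma of sarcomas 1 to 4, against 2513, 2363, 1424 and 2031 CPM in the sarcoma cells. Most of the stroma sum was Spp1 (1867, 13534, 852 and 2564 CPM). Gchfr was at 38.3, 117, 34.4 and 5.92 CPM in stroma and 414 to 1689 CPM in sarcoma cells. Gchfr is part of the sarcoma rule, and cells that met both that rule and the stroma rule were left out. Its level is thus held down in stroma and up in sarcoma cells, so this gap does not measure how alike the classes are. The part of sarcoma cells in the stroma results was not tested. For the 10 genes, the main edgeR tests named in comparisons with stroma are given with and without the stroma of sarcoma 4. Those of other pathway genes are given with it. The mural class of sarcoma 4 rests on 25 cells and 240963 UMIs, and its values carry wide counting error.

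Pdgfra, the receptor for PDGF-A, lies on the plus strand of chromosome 5 (GRCm38, chr5:75152292-75198215). It was counted at 433 CPM in muscle progenitors. In sarcoma cells it was at 202, 219, 326 and 13.0 CPM in sarcomas 1 to 4 (190.0 ± 130.1, mean ± SD, n = 4), and in tumour stroma at 157, 256, 350 and 41.1 CPM (201 ± 132, n = 4). Both tumour classes lay below the muscle progenitors in all 4 tumours, and sarcoma 4 was far below the other 3. Mural cells held 43.8, 27.0, 102 and 0 CPM in the tumours and 81.5 CPM in muscle, the 0 standing for a level of up to 12.5 CPM. In each tumour the mural value was below both other classes, without overlap in sarcomas 1 to 3, and sarcoma 4 was low throughout.

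Pdgfra and Fgf7 were both lower in mural cells than in the other tumour classes (tests below), and of the genes called there they are the pair whose promoter windows overlap no annotated exon. For this reason the 250 bases before their RefSeq transcript starts are shown, on the plus strand of build GRCm38.p6. Promoter windows were matched for 7 of the 10 genes.
Pdgfra chr5:75152001-75152250: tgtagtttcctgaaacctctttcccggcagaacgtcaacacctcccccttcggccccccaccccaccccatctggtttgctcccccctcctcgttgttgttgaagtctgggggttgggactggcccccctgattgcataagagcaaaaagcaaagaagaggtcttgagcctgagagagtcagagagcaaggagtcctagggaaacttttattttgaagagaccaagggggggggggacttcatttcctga
Fgf7 chr2:126034408-126034657: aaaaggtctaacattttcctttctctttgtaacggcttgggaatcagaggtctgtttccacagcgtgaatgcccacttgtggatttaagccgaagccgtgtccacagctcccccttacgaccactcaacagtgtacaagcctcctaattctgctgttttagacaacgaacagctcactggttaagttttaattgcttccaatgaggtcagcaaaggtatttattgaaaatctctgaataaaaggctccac
No letters are in capitals, because a search of both strands found none of 5 motifs in either. These were GGGCGG, held by 32.7% of 32851 mouse promoter windows of the same length, TGANTCA (6.75%), GGAATG (12.6%), TATAAA (12.4%) and the CArG box (1.47%). G and C made up 54.4% of the Pdgfra window and 43.6% of the Fgf7 window.

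Pdgfrb, the receptor that PDGF-B uses to recruit mural cells, lies on chromosome 18 (chr18:61045150-61085061, plus strand). Its highest level was in mural cells, at 679, 1085, 921 and 569 CPM in sarcomas 1 to 4 (813 ± 233, n = 4) and 1264 CPM in muscle. It was at 81.9, 93.4, 174 and 1.99 CPM in sarcoma cells and at 123, 142, 208 and 17.8 CPM in stroma, beside 140 CPM in muscle progenitors. Every mural value exceeded every value of the other classes, and sarcoma 4 again had the lowest level in each tumour class. The sarcoma cells of sarcoma 4 were thus low in both PDGF receptors, with a UMI of Pdgfra in 2.55% and of Pdgfrb in 0.461% of 3251 cells once each cell was thinned to 2000 UMIs. In the sarcoma cells of sarcomas 1, 2 and 3, 32.9%, 32.1% and 43.8% held Pdgfra at that depth, and 15.3%, 15.7% and 25.5% held Pdgfrb.

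Pdgfa, which encodes the PDGF-A chain (chr5:138976014-138997370, minus strand), was also highest in mural cells. It was at 583, 628, 699 and 183 CPM in the tumours' mural cells (523 ± 232, n = 4) and at 190.0 CPM in those of muscle. Sarcoma cells held 61.8, 19.1, 4.06 and 8.88 CPM, and stroma 45.7, 32.5, 28.8 and 30.3 CPM. The 4 stroma values lay close together and near the 29.2 CPM of all muscle progenitors, while those of sarcoma cells spread widely, highest in sarcoma 1. Muscle progenitors that met the stroma rule held more than tumour stroma (below). The muscle level averages over unlike cells. Of the 7354 muscle progenitors, 6705 held no Pdgfa UMI, and 345, high in tendon markers (below), held at least 2. The mural cells of sarcomas 1 to 3 stood above those of muscle, and those of sarcoma 4 were at 183 CPM from 44 UMIs.

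Pdgfb, which encodes the PDGF-B chain (chr15:79995874-80014977, minus strand), was scarce except in sarcoma 3. Sarcoma cells held 0.116, 0.239, 34.9 and 1.28 CPM in sarcomas 1 to 4, so that 2468 UMIs came from sarcoma 3 against 17, 47 and 140 from the others. The mural cells of sarcoma 3 were at 22.0 CPM against 3.55, 4.30 and 4.15 CPM in the others and 4.06 CPM in muscle. In stroma the order was different, with 7.17, 0, 3.22 and 6.96 CPM, the 0 allowing up to 0.711 CPM. Muscle progenitors held 0.166 CPM from 10 UMIs.

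Pdgfc, which encodes the PDGF-C chain (chr3:81036416-81214040, plus strand), was low in every class. Its levels were 0.274, 3.24, 4.91 and 8.15 CPM in sarcoma cells, 15.6, 7.58, 10.2 and 19.8 CPM in stroma and 7.85 CPM in muscle progenitors. In each tumour stroma held more than the sarcoma cells, by the widest margin in sarcoma 1. Mural cells were at 1.18 to 7.09 CPM in the tumours, from 1 to 20 UMIs, and 2.50 CPM in muscle.

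Fgfr1, the main FGF receptor of mesenchyme (chr8:25513654-25575718, plus strand), was counted in every class. It was at 253, 761, 328 and 562 CPM in sarcoma cells (476 ± 231, n = 4), at 286, 280.1, 323 and 642 CPM in stroma (383 ± 174, n = 4) and at 265 CPM in muscle progenitors. Mural cells held 63.1, 60.8, 83.6 and 224 CPM, and 70.0 CPM in muscle. Mural cells were lowest in all 5 libraries, and sarcomas 2 and 4 had the highest levels in their sarcoma cells. The stroma of sarcoma 4 stood above the other stroma and close to the 562 CPM of its own sarcoma cells.

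Fgfr2, the receptor of FGF7 and FGF10 (chr7:130162451-133123350, minus strand), was at most 3.70 CPM in any class. Sarcoma cells held 3, 4, 33 and 251 UMIs of it (0.0205, 0.0204, 0.467 and 2.30 CPM), and muscle progenitors 124 UMIs (2.06 CPM). Tumour mural cells held 1 UMI in all. The annotated span of the gene holds many other genes on both strands. Reads of overlapping genes on the same strand may be split between them, and whether counting used strand is not given in the sources used here.

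Fgf2, a ligand of FGFR1 (chr3:37348346-37410108, plus strand), separated the tumours into a high and a low pair. Sarcoma cells held 23.8, 307, 11.6 and 251 CPM in sarcomas 1 to 4 (148 ± 153, n = 4), beside 36.8 CPM in muscle progenitors. Stroma was at 33.1, 37.9, 14.5 and 249 CPM and mural cells at 7.49, 25.2, 7.80 and 37.4 CPM. Sarcomas 2 and 4 were above muscle and sarcomas 1 and 3 below it in sarcoma cells, while in stroma sarcoma 4 alone was high. The antisense genes Fgf2os and Nudt6 overlap Fgf2 on the other strand, and without stated strand their reads cannot be told apart from it. Counted genes on the other strand also overlap Pdgfra (Gm42802), Pdgfa (6330403L08Rik), Pdgfc (Gm16000) and Fgf10 (Gm16263), with the same limit.

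Fgf7, which encodes the keratinocyte growth factor (chr2:126034658-126091185, plus strand, inside the span of Fam227b on the other strand), was highest in the sarcoma cells of sarcoma 2. Sarcoma cells held 61.2, 303, 36.2 and 33.7 CPM, and stroma 83.3, 155, 128 and 53.3 CPM, beside 35.4 CPM in muscle progenitors. Stroma exceeded the sarcoma cells of the same tumour in sarcomas 1, 3 and 4 and was below them in sarcoma 2. Mural cells were at 24.1, 25.2, 7.09 and 12.5 CPM and at 6.25 CPM in muscle, the lowest class in each library. Fgf10, the other ligand of FGFR2 (chr13:118669791-118792115, plus strand), was at 7.72, 7.85, 1.08 and 0.788 CPM in sarcoma cells, 9.15, 11.4, 4.16 and 2.09 CPM in stroma and 10.9 CPM in muscle progenitors. All sarcoma cell values lay below muscle progenitors, and sarcomas 3 and 4 were lowest in sarcoma cells and in stroma. Mural cells held 5.92, 0, 1.06 and 0 CPM of Fgf10 in sarcomas 1 to 4 and 1.25 CPM in muscle. Mural differences of Fgf10 thus rest on values at or near 0.

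**Figure D1:**
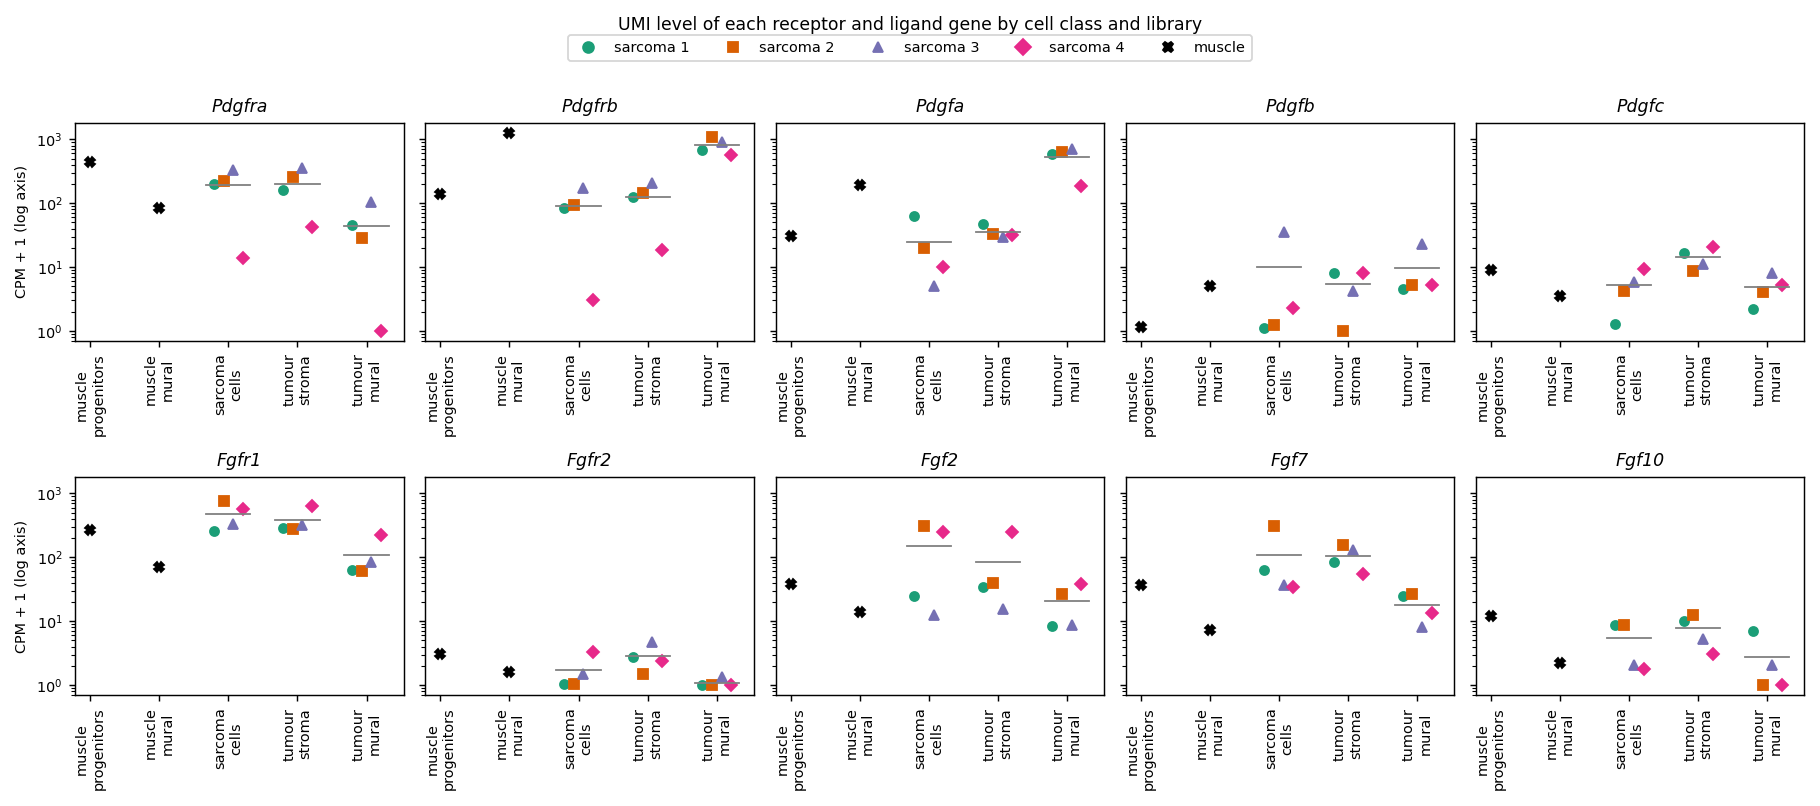
Level of each of the 10 genes (vertical, CPM + 1 on a log axis) by cell class (horizontal), with 1 point per library and grey lines at the mean of the 4 sarcomas. Pdgfrb and Pdgfa are highest in mural cells, Pdgfra and Fgfr1 are lowest there, and Pdgfb in sarcoma 3 (34.9 CPM) and Fgf7 in sarcoma 2 (303 CPM) stand apart in sarcoma cells.

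Mural cells and sarcoma cells of the same tumours were then compared, with each library as a block. Of 9 genes tested (Fgfr2 did not pass the filter on low counts), 2 were higher and 4 lower in mural cells at an adjusted p under 0.05, beside 19.5% of all 11713 genes called, 10.1% higher and 9.38% lower. Pdgfa was higher by a log2 fold change of 4.74 ± 0.72 (SE; edgeR's quasi-likelihood test with Benjamini-Hochberg adjustment, adjusted p = 0.0046) and Pdgfrb by 3.95 ± 0.88 (edgeR adjusted p = 0.0191), each in 4 of 4 tumours. Fgfr1 was lower in 4 of 4, with −2.41 ± 0.38 (edgeR adjusted p = 0.00509), and it passed under all 14 alternatives tried. Pdgfra had −2.29 ± 0.45 (edgeR adjusted p = 0.0121), Fgf7 −2.47 ± 0.57 (edgeR adjusted p = 0.022) and Fgf2 −2.41 ± 0.66 (edgeR adjusted p = 0.0379), each lower in 4 of 4 tumours. Pdgfb, Pdgfc and Fgf10 did not pass, with log2 fold changes of 1.64 ± 1.55, 0.17 ± 0.85 and −1.21 ± 0.79. The median over the 9 genes was −1.21, beside −0.10 over all genes tested.

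Several of these calls were lost when a tumour was left out, in fits that called 728, 594 and 930 genes in all without sarcoma 1, 2 and 3, against 2280 with all 4 tumours. Each kept its direction, and the lost calls included log2 fold changes of 4.41, 4.24 and 4.56 for Pdgfrb without sarcomas 1, 2 and 3, 4.70 for Pdgfa without sarcoma 2, and −2.31 and −1.96 for Pdgfra without sarcomas 1 and 2. Without sarcoma 1, Pdgfra (edgeR adjusted p = 0.068), Pdgfrb (0.0808), Fgf2 (0.12) and Fgf7 (0.0599) no longer passed. Without sarcoma 2, Pdgfa (edgeR adjusted p = 0.0501), Pdgfra (0.0947), Pdgfrb (0.105), Fgf2 (0.075) and Fgf7 (0.101) did not, and without sarcoma 3, Pdgfrb (0.057) and Fgf2 (0.056) did not. Without sarcoma 4, Fgf2 (edgeR adjusted p = 0.0895) did not, and Pdgfrb had 2.87 in place of 3.95. With no library block, Pdgfra (edgeR adjusted p = 0.207), Pdgfrb (0.0771), Fgf2 (0.133) and Fgf7 (0.0541) were not called. Scaling by UMI totals moved the median of all genes by 0.14 (log2) and the split of all calls from 1181 higher and 1099 lower to 1408 and 602, and it kept these 6 genes on their side. Keeping cells that meet 2 rules ended the call of Fgf7 (edgeR adjusted p = 0.0807), and thinning cells to 2000 UMIs that of Fgf2 (0.116). Stricter class thresholds added Fgf10, at −3.60 (edgeR adjusted p = 0.0336).

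Against tumour stroma, mural cells were higher in Pdgfa and lower in Pdgfra, Fgfr1 and Fgf7, 1 and 3 of 9 genes tested, beside 7.52% of all genes called, 3.74% higher and 3.78% lower. The log2 fold change of Pdgfa was 3.75 ± 0.68 (edgeR adjusted p = 0.0173). Fgf7 had −2.96 ± 0.58 (edgeR adjusted p = 0.0224), Pdgfra −2.70 ± 0.46 (0.0142) and Fgfr1 −2.07 ± 0.37 (0.0157). All 4 lay on the same side in 4 of 4 tumours. The median over the 9 genes was −1.99, beside −0.02 over all genes tested. Pdgfrb had 3.21 ± 0.83 and missed the threshold in this fit (edgeR adjusted p = 0.0551), though it was also higher in 4 of 4. Without the stroma of sarcoma 4, Pdgfa (edgeR adjusted p = 0.0209), Pdgfra (0.0102), Fgfr1 (0.0254) and Fgf7 (0.0312) passed and Pdgfrb did not (0.117).

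Here too calls were lost when a tumour was left out, in fits that called 199, 126 and 159 genes in all without sarcoma 1, 2 and 3, against 881. The lost calls kept their direction, with log2 fold changes of 3.81 and 3.63 for Pdgfa, −3.00, −2.44 and −3.12 for Pdgfra, −1.99 and −2.06 for Fgfr1 and −3.51, −2.91 and −2.33 for Fgf7. Without sarcoma 1, Pdgfa (edgeR adjusted p = 0.0569), Pdgfra (0.07), Fgfr1 (0.109) and Fgf7 (0.0743) no longer passed. Without sarcoma 2, Pdgfa (edgeR adjusted p = 0.138), Pdgfra (0.11) and Fgf7 (0.0743) did not, and without sarcoma 3, Pdgfra (0.0701), Fgfr1 (0.103) and Fgf7 (0.101) did not. Without sarcoma 4 the 4 genes passed and Pdgfrb did too, at 2.34 (edgeR adjusted p = 0.00271). With no library block, Pdgfra (edgeR adjusted p = 0.304), Fgfr1 (0.0716) and Fgf7 (0.107) were not called. Scaling by UMI totals moved the median of all genes by 0.13 (log2) and the split of all calls from 438 higher and 443 lower to 651 and 330, and there Pdgfrb passed (edgeR adjusted p = 0.046). Keeping cells that meet 2 rules ended the call of Fgf7 (edgeR adjusted p = 0.0592). Stricter thresholds added Fgf10, at −4.54 (edgeR adjusted p = 0.0305), thinning added Pdgfrb (0.0111), and DESeq2, which called 17.5% of all genes, added Pdgfrb, Fgf2 and Fgf10 (adjusted p = 0.000251, 0.0244 and 0.0338). The fit with stricter thresholds lacked the stroma of sarcoma 4, which then held 19 cells. At an unadjusted p under 0.05 edgeR had 24.4% of all genes.

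Free RNA from other cells gives UMIs in cells that do not make a gene, and mural cells were the shallower class, with medians of 9489 to 11969 UMIs in the tumours against 23189 to 32507 in sarcoma cells. In muscle, the mural level of Pdgfra was 0.188 times that of progenitors and that of Fgf7 0.177 times, while the abundant progenitor genes Dcn, Dpt, Lum and Gsn were at 0.192, 0.193, 0.207 and 0.216 times. Fgfr1 and Fgf2 lay above these in muscle, at 0.264 and 0.357 times. In sarcoma 2 the mural level was 0.080 times that of sarcoma cells for Fgfr1, 0.082 for Fgf2, 0.083 for Fgf7 and 0.084 for Gchfr, which had 0 UMIs in muscle mural cells. The other tumours differed. In sarcomas 1, 3 and 4 the ratios were 0.249, 0.255 and 0.399 for Fgfr1 and 0.314, 0.671 and 0.149 for Fgf2. They were 0.393, 0.196 and 0.370 for Fgf7, beside 0.130, 0.079 and 0.130 for Gchfr. The mural level of Pdgfra was 0.217, 0.123 and 0.314 times that of sarcoma cells in sarcomas 1 to 3, beside 0.245, 0.320 and 0.212 times for Cdkn2a, a gene abundant in sarcoma cells and near 0 in muscle. The part of free RNA in these levels and differences was not tested. Gchfr is part of the class rules, which leave out cells that meet both, so its ratio is held down. For Pdgfa and Pdgfrb the mural level was 5.30 to 286 times that of the main cells in all 5 libraries.

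**Figure D2:**
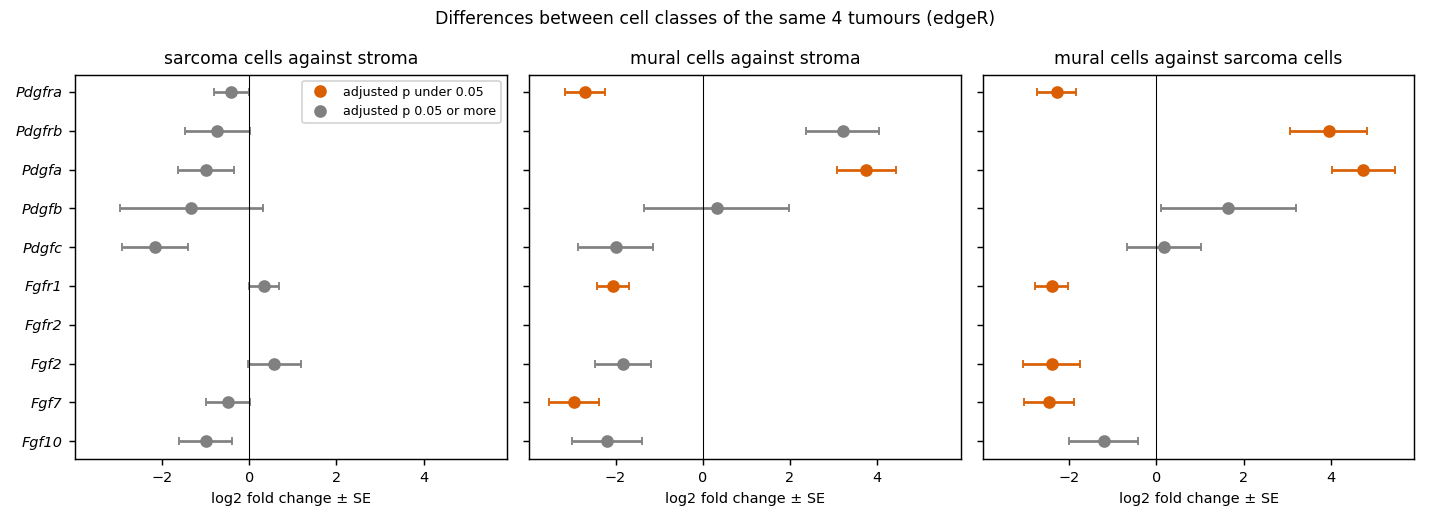
Log2 fold change with its standard error (horizontal) of each gene (vertical) between classes of the same 4 tumours, with orange points past an adjusted p of 0.05 and Fgfr2 absent because it was too low to test. Pdgfa is right of 0 in both mural comparisons (3.75 and 4.74), Pdgfra and Fgfr1 are left of it, and no gene passes between sarcoma cells and stroma.

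Between sarcoma cells and tumour stroma, 0 of 9 genes tested passed, beside 7.99% of all genes called by edgeR, 2.19% higher and 5.8% lower in sarcoma cells. At an unadjusted p under 0.05, 28.9% of all genes and Pdgfc alone among the 9 were past it, and DESeq2, which called 23.5% of all genes, called Pdgfc (−2.24, adjusted p = 0.0164). In the edgeR fit Pdgfc had a log2 fold change of −2.16 ± 0.76 (adjusted p = 0.111) and was lower in sarcoma cells in 4 of 4 tumours. Pdgfra had −0.41 ± 0.40, Pdgfrb −0.73 ± 0.75, Fgfr1 0.34 ± 0.35 and Fgf2 0.58 ± 0.61, with edgeR adjusted p-values of 0.529 to 0.567. Without the stroma of sarcoma 4 these were −0.0064, −0.90, 0.31 and 0.85, and none passed. Pdgfc then had −2.53 (edgeR adjusted p = 0.103). With all 4 tumours, the standard errors of Pdgfra, Pdgfrb, Fgfr1 and Fgf2 ran from 0.35 to 0.75. That these genes did not pass does not show that the classes hold equal levels. Leaving out sarcoma 2 turned Fgf2 to −0.23 and Fgfr1 to −0.12, while without sarcoma 4 Fgf2 had 0.77.

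Against the 1 muscle library, no gene of the 17670 tested passed in sarcoma cells (0.0% called) and none of the 12779 in stroma (0.0% called), by edgeR. At an unadjusted p under 0.05 the shares were 12.7% and 9.23%, and DESeq2 called 1852 genes (11.1%) and 571 genes (4.49%). All 10 genes were tested in both and none passed. Scaling by UMI totals moved the median of all genes by −0.17 (log2) in sarcoma cells and by −0.18 in the mural comparison that follows, and no receptor or ligand passed under it. In sarcoma cells the log2 fold changes ran from −1.36 ± 2.46 for Fgfr2 to 5.73 ± 4.44 for Pdgfb, the latter set by sarcoma 3. Pdgfra and Fgf10 lay below muscle progenitors in all 4 sarcoma cell sums, as did 30.7% of all genes, and none of the 10 lay above in all 4 (21.3% of all genes). In stroma, Fgfr1 and Fgf7 were above muscle in all 4 tumours (19.2% of all genes) and Pdgfra below (29.9%). Stroma's Pdgfra had −1.03 ± 1.00 and its Fgf7 1.65 ± 0.72 (edgeR adjusted p = 0.753 and 0.571). Without the stroma of sarcoma 4 these log2 fold changes were −0.69 and 1.87.

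Tumour mural cells and muscle mural cells did not differ past the threshold in any of 9 genes tested, beside 0.965% of 11912 genes called, 0.26% higher and 0.705% lower. DESeq2 called 4.94% of genes and none of the 9. The nearest was Pdgfa, whose log2 fold change in tumours was 1.66 ± 0.68 (edgeR adjusted p = 0.276). Without sarcoma 4, whose mural class is the smallest, Pdgfa had 1.92 and passed (edgeR adjusted p = 0.0391), and with cells thinned to 2000 UMIs, which also drops that class, it had 1.96 (edgeR adjusted p = 0.0137). Pdgfrb was below muscle in 4 of 4 tumours (37.3% of all genes), at −0.45 ± 0.37 (edgeR adjusted p = 0.577), and Fgf7 above in 4 of 4 (16.8%), at 1.69 ± 0.80 (edgeR adjusted p = 0.33). These mural cells differ in depth, with a median of 3347 UMIs in muscle.

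Ligand and receptor transcripts were looked for in the same cells, each thinned to 2000 UMIs, with exact binomial 95% intervals that cover counting error only. In mural cells, Pdgfa and Pdgfrb were both counted in 79 of 180 cells of sarcoma 1 (43.9%, 36.5 to 51.5), 60 of 124 of sarcoma 2 (48.4%, 39.3 to 57.5), 109 of 217 of sarcoma 3 (50.2%, 43.4 to 57.1) and 2 of 19 of sarcoma 4 (10.5%, 1.30 to 33.1). Muscle mural cells had both in 125 of 618 (20.2%, 17.1 to 23.6). These shares were 0.99 to 1.02 times the product of the single shares in muscle and sarcomas 1 to 3, and 0.68 times in sarcoma 4, so holding Pdgfa went with no visible excess or lack of Pdgfrb. PDGF-A acts mainly through PDGFRα, so these 2 genes are not its main ligand and receptor pair. In sarcoma cells Pdgfa and Pdgfrb were both counted in at most 1.86%. Without thinning, the mean over the 4 tumours was 77.5% in mural cells and 13.5% in sarcoma cells, the latter up to 31.7% in sarcoma 1.

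Pdgfa was next set beside Pdgfra, the receptor of PDGF-A. At 2000 UMIs the pair was together in 1.11%, 0.806% and 3.23% of the mural cells of sarcomas 1 to 3, or 0.468, 0.463 and 0.479 times the product of the single shares, from 2, 1 and 7 cells. These mural ratios rest on few cells and ran from 0.29 to 0.90 at 4000 UMIs and from 0.75 to 0.86 without thinning. In sarcoma cells both were in 175 of 5102 cells of sarcoma 1 (3.43%, 2.95 to 3.97, 0.998 times the product) and in 0.0923% to 0.801% in the others. In muscle progenitors both were in 33 of 7105 cells (0.464%, 0.320 to 0.652), while Pdgfa was in 4.24% and Pdgfra in 52.7%, which gives 0.208 times the product, and 0.466 times without thinning.

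The muscle cells with Pdgfa differed in their other genes. The 345 muscle progenitors with at least 2 UMIs of Pdgfa held Pdgfra at 70.4 CPM, against 459 CPM in the 6705 with none. Their tendon markers were high, with Tnmd at 4101 against 40.5 CPM, Thbs4 at 10487 against 387 CPM and the tendon transcription factor Scx at 910.0 against 8.92 CPM. Their median depth was 7740 UMIs against 7984. Smoc2 and Pi16, progenitor genes, were at 364 against 2517 CPM and 210.4 against 1054 CPM. The 173 muscle progenitors that met the stroma rule held Pdgfa at 237 CPM, above every tumour stroma value. Their tendon markers summed to 14613 CPM, against 1747 CPM in all muscle progenitors and 571 to 3831 CPM in tumour stroma. Selection was on Pdgfa itself and within 1 library, so these are descriptions without a test.

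Pdgfb was counted in the same cells as its receptors. In the sarcoma cells of sarcoma 3, 144 of 2823 cells held Pdgfb, 67 of these with Pdgfra (2.37% of cells, 1.84 to 3.00) and 47 with Pdgfrb (1.66%, 1.23 to 2.21), or 1.06 and 1.28 times the products. In the sarcoma cells of the other tumours, 1, 1 and 7 cells held Pdgfb. The receptor pair Pdgfra and Pdgfrb was in 5.51%, 5.57%, 11.3% and 0% of sarcoma cells of sarcomas 1 to 4 at 2000 UMIs and in 13.5% of muscle progenitors. Without thinning the share in sarcoma 4 was 0.980%, from 32 of 3264 cells.

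Fgf2 and its receptor Fgfr1 met in the same sarcoma cells mainly in the tumours high in Fgf2. Both were counted in 1.98% (1.62 to 2.40), 29.5% (28.4 to 30.5), 0.850% (0.545 to 1.26) and 21.7% (20.3 to 23.2) of the sarcoma cells of sarcomas 1 to 4, and in 2.69% of muscle progenitors. The shares were 0.96 to 1.24 times the products. Fgf7 and Fgfr1 were together in 29.7% of the sarcoma cells of sarcoma 2 and in 2.34% to 4.03% in the other 3. Fgf7 and Fgfr2, its usual receptor, were together in no sarcoma cell at 2000 UMIs and in 4 of 7105 muscle progenitors. Without thinning they were together in 0.0195% to 1.56% of sarcoma cells, most in sarcoma 4. Fgf10 and Fgfr2 were together in no sarcoma cell at 2000 UMIs, in 0.0135% to 0.153% without thinning, and in 2 muscle progenitors at 2000 UMIs.

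**Figure D3:**
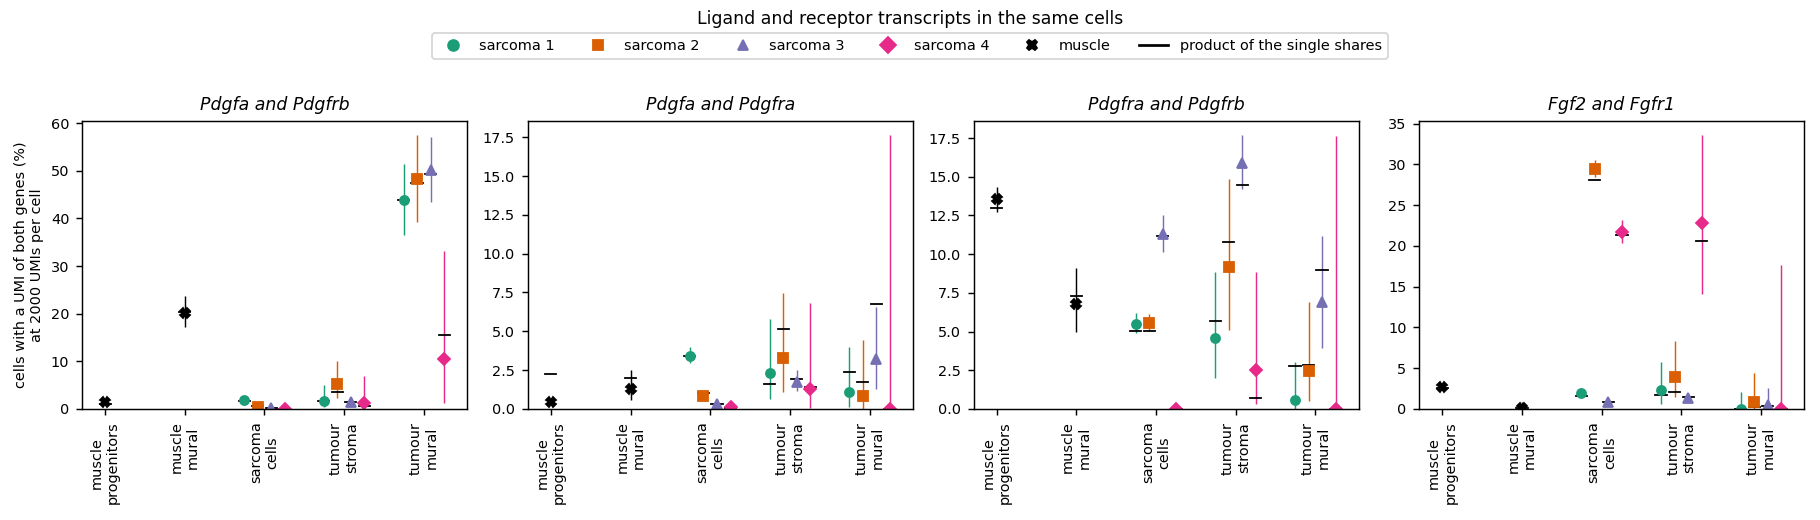
Share of cells with a UMI of both genes of a pair (vertical, percent, cells thinned to 2000 UMIs, axes differ between panels) by class (horizontal), with exact 95% intervals and black dashes at the product of the single shares. Pdgfa and Pdgfrb meet in mural cells (43.9% to 50.2% in sarcomas 1 to 3), Fgf2 and Fgfr1 in the sarcoma cells of sarcomas 2 and 4, and Pdgfa with Pdgfra falls below the product in muscle progenitors. PDGF-A acts mainly through PDGFRα, so Pdgfa with Pdgfrb is not its main receptor pair.

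Other genes of the pathways were counted from a list of 64 receptors, ligands, cofactors, adaptors and feedback inhibitors, of which 63 were measured and 51 tested within the tumours. Between sarcoma cells and stroma 0 were higher and 6 lower, beside 2.19% and 5.8% of all genes, with a median of −0.11 beside 0.07 over all genes. Fgf18, an FGF of skeletal mesenchyme, was at 0.466, 1.77, 3.99 and 0.403 CPM in sarcoma cells and 25.0, 25.1, 23.4 and 13.2 CPM in stroma, a log2 fold change of −4.30 ± 0.50 (edgeR adjusted p = 0.00381). It passed under all 14 alternatives in which it was tested. The decoy FGF receptor Fgfrl1 had −1.64 ± 0.30 (edgeR adjusted p = 0.0198), Ext1, which builds heparan sulphate chains, −1.87 ± 0.33 (0.018) and the ubiquitin ligase Cblb −1.64 ± 0.38 (0.0403). Without sarcoma 1, 2 or 3 in turn, Ext1 (edgeR adjusted p = 0.13, 0.144 and 0.0964), Fgfrl1 (0.157, 0.143 and 0.124) and Cblb (0.251, 0.254 and 0.186) did not pass, and Cblb did not with no library block (0.0534). Keeping cells that meet 2 rules ended the calls of Fgfrl1 (edgeR adjusted p = 0.053) and Cblb (0.0742). Pdgfd, the remaining PDGF ligand, was under the 20 CPM set for naming and is given after its values were seen: 0.322, 0.0712, 0.976 and 0.449 CPM in sarcoma cells against 18.8, 27.5, 15.1 and 3.83 CPM in stroma.

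In mural cells against stroma, 0 of the 51 were higher and 3 lower, beside 3.74% and 3.78% of all genes, with a median of −0.18 beside −0.02 over all genes. Fgf18 had −4.04 ± 0.62 (edgeR adjusted p = 0.00989), with 0.789, 1.84, 4.25 and 0 CPM in mural cells. Sulf2, a sulphatase that edits heparan sulphate, had −3.30 ± 0.39 (edgeR adjusted p = 0.00378) and the heparan sulphate proteoglycan Gpc1 −0.93 ± 0.21 (0.0365). Without sarcoma 1, Fgf18 (edgeR adjusted p = 0.0562) and Gpc1 (0.106) did not pass, without sarcoma 2 Fgf18 (0.0899) and Gpc1 (0.191), and without sarcoma 3 Sulf2 (0.0559) and Gpc1 (0.199). With no library block none of Fgf18 (edgeR adjusted p = 0.051), Sulf2 (0.051) and Gpc1 (0.695) did, and thinning ended the call of Gpc1 (0.0791).

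In mural cells against sarcoma cells, 4 of the 51 were higher and 7 lower, beside 10.1% and 9.38% of all genes, with a median of 0.08 beside −0.10 over all genes. Fgfrl1 was at 40.2, 33.8, 31.5 and 33.2 CPM in mural cells and 6.55, 4.12, 9.34 and 7.23 CPM in sarcoma cells, with 2.22 ± 0.32 (edgeR adjusted p = 0.00351), and passed under all 14 alternatives in which it was tested. Syndecan 1 (Sdc1) had 2.49 ± 0.70 (edgeR adjusted p = 0.042) and Gpc4 2.25 ± 0.50 (0.0195), both heparan sulphate proteoglycans. Sdc1 was at 15.4, 16.8, 39.1 and 467 CPM in sarcoma cells and 282, 279, 226 and 531 CPM in mural cells, so the sarcoma cells of sarcoma 4 overlapped the mural range. Lower were Gpc1 (−1.58 ± 0.21, edgeR adjusted p = 0.00272), Sulf2 (−2.11 ± 0.38, 0.00893) and the feedback inhibitors Il17rd (−1.48 ± 0.43, 0.0445) and Spred2 (−1.11 ± 0.32, 0.0436). The inhibitors of the list did not share a direction. Dusp4 and Spred3, under the 20 CPM set for naming, are given after their values were seen. Dusp4 was higher in mural cells (5.17 ± 0.91, edgeR adjusted p = 0.00814), also under all 13 alternatives in which it was tested. Spred3 was lower (−1.26 ± 0.37, edgeR adjusted p = 0.0485). Without sarcoma 1, Sdc1 (edgeR adjusted p = 0.192), Sulf2 (0.0637), Il17rd (0.162) and Spred2 (0.152) did not pass, and without sarcoma 2 Sdc1 (0.18), Gpc4 (0.13) and Spred2 (0.142) did not. Without sarcoma 3, Sdc1 (edgeR adjusted p = 0.156), Gpc4 (0.0854), Sulf2 (0.0793), Il17rd (0.157) and Spred2 (0.113) did not, nor did Gpc4 (0.0529) and Il17rd (0.0992) without sarcoma 4. With no library block Sdc1 (edgeR adjusted p = 0.497), Gpc4 (0.266), Sulf2 (0.0848), Gpc1 (0.295), Il17rd (0.15) and Spred2 (0.135) did not, and scaling by UMI totals ended the calls of Il17rd (0.0671) and Spred2 (0.0756). Thinning ended those of Spred2 (−0.52, edgeR adjusted p = 0.259) and Il17rd (0.0866), as did keeping cells that meet 2 rules (0.0727 and 0.0657). Il17rd was also lost with stricter thresholds (edgeR adjusted p = 0.101) and without the 5% of cells with most UMIs (0.0522), and Sdc1 without the filter on low counts (0.0617). In the 3 comparisons with muscle 0 of the 61, 55 and 51 list genes tested passed.

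**Figure D4:**
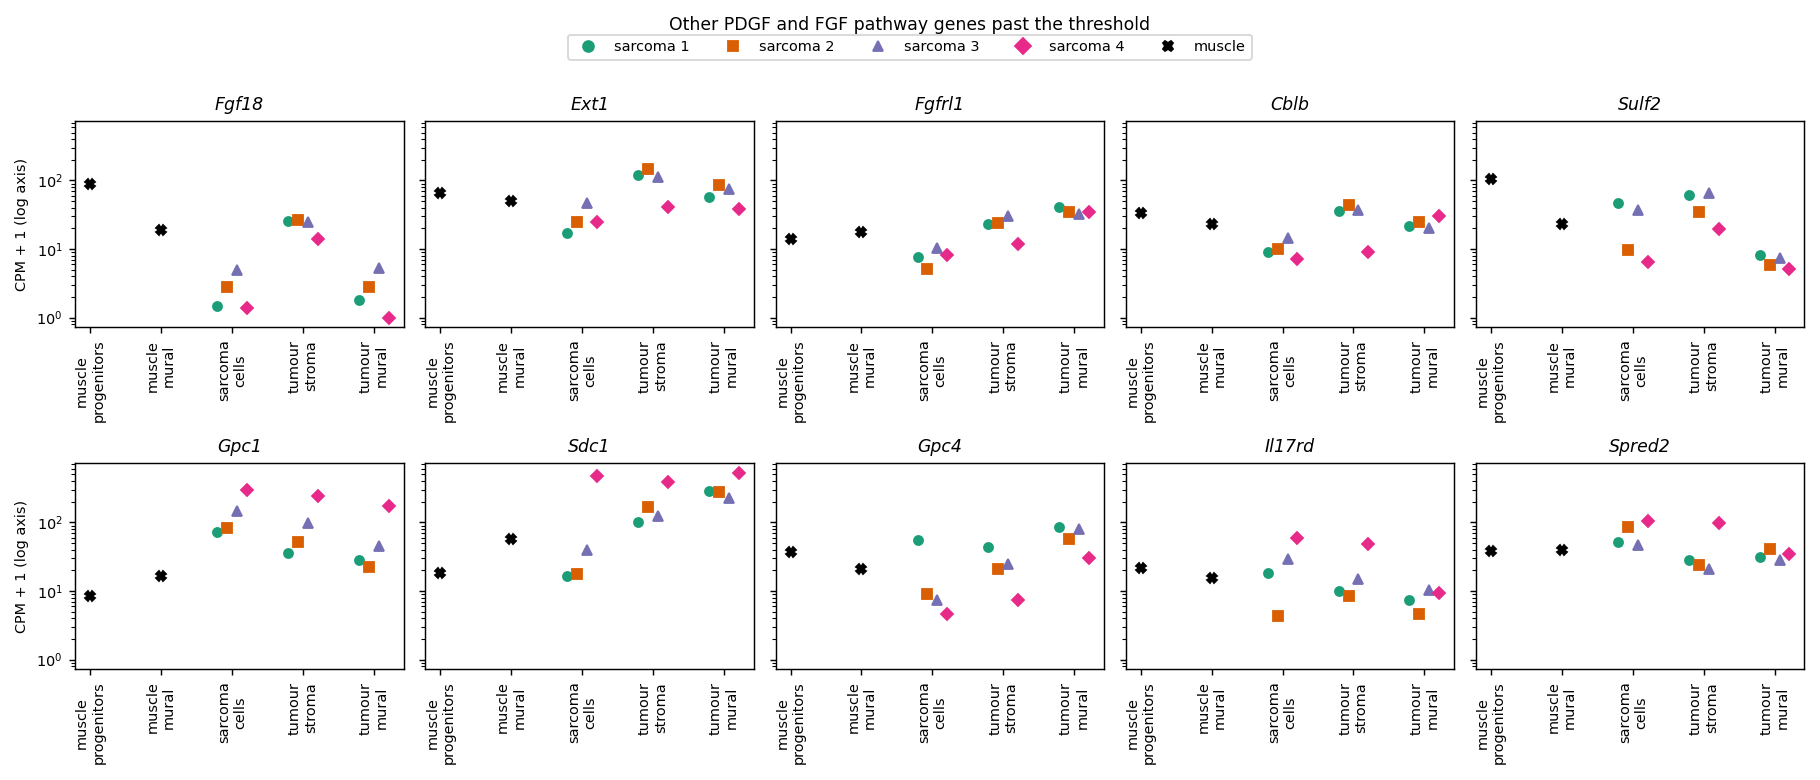
Levels (vertical, CPM + 1 on a log axis) of the 10 named pathway genes by class (horizontal), 1 point per library. Fgf18 is at 87.3 CPM in muscle progenitors, 13.2 to 25.1 CPM in stroma and at most 3.99 CPM in sarcoma cells, and Fgfrl1 in tumour mural cells (31.5 to 40.2 CPM) lies above every sarcoma cell value.

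In cells just above the Rgs5 threshold, Pdgfa lay below its level in the mural class. These cells were taken by Rgs5 alone. Those that also meet another class rule were not left out, as they are from the mural class. In cells with 5 to under 7 UMIs of Rgs5 per 10000, Pdgfa was at 127, 8.45, 16.7 and 53.2 CPM in sarcomas 1 to 4 (16, 18, 12 and 3 cells) and 137 CPM in muscle. In cells just outside, with 3 to under 5, it was at 54.9, 21.0, 22.9 and 239 CPM and 54.6 CPM in muscle, the value of sarcoma 4 lying above the 183 CPM of its mural class.

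The genes most like each receptor or ligand over the 14 class sums, by Pearson's r of log2(CPM + 1), describe these sums only, since the sums share libraries and depth. Nearest to Pdgfrb was Gng11 (r = 0.98), to Pdgfa Sema6d (0.96) and to Pdgfra Lum (0.95). Nearest to Fgf10 was Dchs1 (0.91), to Fgfr2 Clip4 (0.90), to Fgf2 Nhlrc2 (0.90), to Fgfr1 Fzd2 (0.89), to Fgf7 Ergic1 (0.89), to Pdgfc Pmepa1 (0.89) and to Pdgfb Brox (0.84). Within the 10 genes, Pdgfa and Pdgfrb had r = 0.73, Pdgfa and Fgfr1 r = −0.86, and Pdgfra and Pdgfrb r = −0.02.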

How the data were processed

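RNA of sorted single cells was counted in 5 libraries, 1 of muscle and 4 of sarcomas, grouped by their labels. The deposited files hold UMI counts per gene and cell, which the authors made on mm10 per the submitters' processing notes. The file headers name Cell Ranger, version 6.0.1. Kept cells were put into classes by the stated rules, and cells that met 2 rules were left out. No doublet caller was run. Counts were summed per library and class (sums of at least 20 cells), and CPM is the summed count per 1000000 UMIs of that class. Class sums were compared with edgeR 4.0.16 (quasi-likelihood test, TMM scaling, filterByExpr, Benjamini-Hochberg adjustment) under R 4.3.3. The 3 comparisons within tumours came from a single fit with library as a block, because the classes come from the same tumour. The 3 comparisons with muscle set 4 sums against 1, which is assumed to vary like the sarcomas. SE is the absolute log2 fold change over the square root of F. DESeq2 1.42.0 was an alternative. The edgeR steps were run on simulated counts for sarcoma cells against stroma and against muscle progenitors only, with the spread fitted from these data. That run does not test the other comparisons or the assumed spread of muscle. Shares in the same cells used cells thinned to 2000 UMIs, with shallower cells left out. Exact binomial intervals (95%) and the floor of 3 counts behind a 0 cover counting error only. Kept cells held 63300999 UMIs in muscle and 150323199 to 211830490 in the sarcomas.

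Named beside the 10 genes were up to 4 pathway genes per direction and comparison, those with the largest change among genes past an adjusted p of 0.05 with at least 20 CPM in the higher class, and for each of the 10 the gene nearest by correlation. The genes and lists were chosen with earlier results of these data known. No label ties each sarcoma to an animal of its own, and p-values therefore cover the spread of these 4 samples alone, possibly a technical one. Other alternatives were the scaling, the filter, each sarcoma left out, class thresholds, doublet-prone cells, depth and, chosen after seeing the data, the stroma of sarcoma 4.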

Additional observations from a re-analysis of the deposited data

Results flagged for a closer look

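In 9 of 40 sets of 4 sarcoma values, the highest sample lay further from the others than a gap test allows. The test looks at both ends, and chance gives a flag at either end in about 1 set in 20. The sets overlap, since a whole library holds its classes, so the count of flags cannot be set against that rate. Pdgfb was flagged in sarcoma 3, at 34.92 CPM in sarcoma cells (others 0.116 to 1.28), 21.97 CPM in mural cells (3.55 to 4.30) and 21.93 CPM in the whole library (0.255 to 1.20). Fgf7 was flagged in sarcoma 2, at 303.2 CPM in sarcoma cells (others 33.7 to 61.2) and 297.5 CPM in the whole library (32.2 to 68.9). In sarcoma 4, Fgfr1 was at 641.7 CPM in stroma (others 280.1 to 323) and 224.1 CPM in mural cells (60.8 to 83.6), and Fgf2 at 248.6 CPM in stroma (14.5 to 37.9). That stroma is the class whose progenitor markers were low. Fgfr2 in the mural cells of sarcoma 3, at 0.3544 CPM against 0 in the others, rests on 1 UMI.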

How the results depend on the processing

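Genes called moved by over 1.5 times under several alternatives, and the cause was not tested. In the order sarcoma cells against stroma, mural cells against stroma and mural against sarcoma cells, edgeR called 936, 881 and 2280 genes, no library (replicate) block gave 367, 318 and 1010, and DESeq2 gave 2757, 2044 and 3480. Leaving out each sarcoma gave 118 to 2982, 126 to 1475 and 594 to 3135. Sarcoma cells against stroma gave 2285 with stricter thresholds, 584 with cells of 2 rules kept, 2260 without the stroma of sarcoma 4 and 2295 with stroma cells that hold a Smarcb1 UMI. Stricter thresholds left 19 stroma cells in sarcoma 4 and the Smarcb1 rule 13, too few to enter. Both fits therefore also lacked the stroma of sarcoma 4, here and against muscle, and are not separate from the fit without it. Thinning left 1254 in mural against sarcoma cells, with the 19 mural cells of sarcoma 4 too few to enter.

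No paired analysis was possible because muscle is 1 library in the other comparisons. There sarcoma cells gave 1852 with DESeq2, 3 thinned and 0 without each sarcoma in turn. Stroma gave 571 with DESeq2, 508 with stricter thresholds, 24 thinned, 229 without the stroma of sarcoma 4, 365 with Smarcb1 and 0 to 229 without each sarcoma. Mural cells gave 115 at first, 543 with DESeq2, 261 without the filter, 239 with stricter thresholds, 45 with cells of 2 rules kept, 446 thinned and 33 to 221 without each sarcoma.

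Every called receptor or ligand kept its direction. Changes of sign, 34 in all, were in uncalled values. In sarcoma cells against stroma, Pdgfb went to 0.97 with no block and 1.30 with stricter thresholds (−3.16 to 0.56 without each sarcoma), Fgf7 to 0.077 with no block (−1.07 to 0.084), Pdgfra to 0.0037 with Smarcb1 stroma, Fgfr1 ran from −0.12 to 0.50 and Fgf2 from −0.23 to 0.95. In mural cells, Pdgfb against stroma ran from −0.65 to 1.85, and against sarcoma cells it was −0.0069 and Pdgfc −0.23 with no block (Pdgfc −0.16 to 0.48). Against muscle, Pdgfa in sarcoma cells was 0.0022 with stricter thresholds (−1.25 to 0.29), and in stroma −0.025 with all muscle cells. In stroma, Pdgfrb was 0.29 with stricter thresholds, 0.0087 thinned, 0.25 without sarcoma 4 stroma and 0.32 with Smarcb1 (−0.50 to 0.25). With stricter thresholds, without sarcoma 4 stroma and with Smarcb1, in that order, Fgfr2 was 0.14, 0.094 and 0.066 (−0.043 to 0.23) and Fgf2 −0.42, −0.30 and −0.10 (−0.30 to 1.54). All fits under these settings lacked the stroma of sarcoma 4, so their changes of sign in Pdgfrb, Fgfr2 and Fgf2 are not separate. Fgfr2 was also 0.15 without the cells of most UMIs and 0.016 with all muscle cells. Values in parentheses are ranges over fits that each leave out a sarcoma. Depth limits Fgfr2, Pdgfb, Pdgfc, Fgf10 in mural cells and all mural values of sarcoma 4.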
